A study of Homo sapiens with 6 samples.

Results

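A set of 1439 NRF2 regions was listed strongly in a single CDDO-Im library and in neither vehicle library, 198 in CDDO-Im 1 and 1241 in CDDO-Im 2. They are described here out of 19331 regions, made by joining the peaks of 4 lists on chromosomes 1 to 22 and X wherever they overlapped by at least 1 bp. Regions in dense megabases, those holding more than 20 joined regions, were dropped, which left 7386. The members were chosen by which library listed them and by a highest −log10 q of at least 5, so their number, their q and their tags describe the choice and were not tested. As a share of the 7386 regions the members were 2.68% for CDDO-Im 1 and 16.8% for CDDO-Im 2. Chosen the same way among the vehicle libraries, 40 regions (0.542%) were listed strongly in vehicle 1 alone and 93 (1.26%) in vehicle 2 alone.

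Occupancy was mapped by chromatin immunoprecipitation and sequencing with an antibody against NRF2 (clone D1Z9C). The cells were HMC3, an established human microglial line, and no genotype beyond the line is given. The 2 vehicle libraries and the 2 libraries from cells given CDDO-Im (30 nM, 4 h) took their groups from the sample titles, since the treatment text reads alike for every sample. CDDO-Im is a synthetic triterpenoid that activates NRF2. Nothing in the labels says that the libraries of a group came from separate cultures, and peak lists carry no expression with which to check the cell type.

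NRF2 is a transcription factor of the cap'n'collar family. In resting cells its repressor KEAP1 holds it for degradation, and triterpenoids that modify KEAP1 let it accumulate. It then pairs with a small MAF protein and binds antioxidant response elements near genes of glutathione synthesis, thioredoxin reduction, detoxification and NADPH supply. The core of this element can contain the letters bound by AP-1, another dimeric factor.

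The DNA under the members could be read only where a summit fell in a promoter window of the RefSeq table (GRCh38.p14), the 250 bases before to 50 after a gene's start. Of the 1350 members on chromosomes with such windows, 30 had a summit within 500 bp of a start and 13 had it inside a window. Shown are 5 of these 13, among those with the highest −log10 q, plus AIFM2 and JAKMIP3, which were added after their values were seen. Each is read on the gene's strand from 60 bases before the summit to at most 60 after it, with the summit at base 61 and positions in hg38. Capitals mark the response element core (TGACNNNGC on either strand) and the AP-1 letters (TGANTCA with C or G for N), which may overlap.
LOC124902205, CDDO-Im 2, chr9:88852929-88853049, plus strand: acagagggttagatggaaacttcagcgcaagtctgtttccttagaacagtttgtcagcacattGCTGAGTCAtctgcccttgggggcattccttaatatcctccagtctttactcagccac
MSANTD3, CDDO-Im 2, chr9:100429402-100429522, plus strand: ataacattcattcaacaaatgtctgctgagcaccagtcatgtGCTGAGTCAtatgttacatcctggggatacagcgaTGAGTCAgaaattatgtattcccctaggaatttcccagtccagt
LOC105376356, CDDO-Im 2, chr10:3313953-3314023, minus strand: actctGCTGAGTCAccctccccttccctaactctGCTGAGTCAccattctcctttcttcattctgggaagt
LRRFIP2, CDDO-Im 2, chr3:37175231-37175351, minus strand: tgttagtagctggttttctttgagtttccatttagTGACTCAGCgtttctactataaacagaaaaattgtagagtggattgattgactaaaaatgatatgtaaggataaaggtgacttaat
AIFM2, CDDO-Im 2, chr10:70132796-70132903, minus strand: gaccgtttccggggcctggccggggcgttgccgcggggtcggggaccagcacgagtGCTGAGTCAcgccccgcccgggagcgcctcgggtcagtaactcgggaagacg
JAKMIP3, CDDO-Im 1, chr10:132065875-132065975, plus strand: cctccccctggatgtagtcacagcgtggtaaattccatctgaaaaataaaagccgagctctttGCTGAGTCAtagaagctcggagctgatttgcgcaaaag
MAFG-AS1, CDDO-Im 2, chr17:81922726-81922846, plus strand: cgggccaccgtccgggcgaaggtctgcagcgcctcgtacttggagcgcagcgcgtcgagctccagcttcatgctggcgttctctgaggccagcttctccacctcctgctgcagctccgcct

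For 11 of the 13 members a window at the summit held the core (84.6%, exact 95% binomial interval 54.6% to 98.1%). Of all 34961 windows of the table, 13.4% held it. A region with its summit in several windows was counted once, with the core if any of them held it. The core nearest to the summit lay within 50 bp of it in each of the 11, between 0 and 41 bp away with a median of 10 bp. In AIFM2, which encodes an oxidoreductase that protects membranes from lipid peroxidation, the core lay on the summit (0 bp), and in JAKMIP3 and LOC124902205 it lay 7 bp away. The promoter window of LOC105376356, a non-coding locus, held 2 cores, the nearer 22 bp from the summit. In LRRFIP2 the core lay 21 bp and in MSANTD3 14 bp from the summit.

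The AP-1 letters were in the window of 10 of the 13 members (76.9%, interval 46.2% to 95.0%) against 4.92% of all windows. A 10-letter form, the AP-1 letters followed by GCA on either strand, was in 8 (61.5%, interval 31.6% to 86.1%) against 0.286%. The sequence at MAFG-AS1, a non-coding neighbour antisense to MAFG by name, held neither the core nor the AP-1 letters although its member had 21 tags. LOC105371984 was the other member without the core, and its window held the AP-1 letters and the 10-letter form 10 bp and 11.5 bp from the summit. The intervals cover counting error only.

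Of 11 regions in a window that both CDDO-Im libraries and no vehicle library listed, 9 held the core (81.8%, interval 48.2% to 97.7%). The 10-letter form was in 7 of them (63.6%). Regions of all 4 libraries held the core in 5 of 6 (83.3%). Weak regions of 1 CDDO-Im library, those with −log10 q below 5, held it in 9 of 13 (69.2%, interval 38.6% to 90.9%), in 7 of them within 50 bp of the summit. These intervals overlap those of the members, and at this number of regions a difference was not detectable. No strong region of a single vehicle library had its summit in a window. Of the 100 windows that hold the 10-letter form, 8 held a member summit, 7 a region of both CDDO-Im libraries without vehicle, 2 a region of both with 1 vehicle library, 4 a region of all 4 and 7 a weak region of 1 CDDO-Im library. The remaining 72 held no summit.

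**Figure D1:**
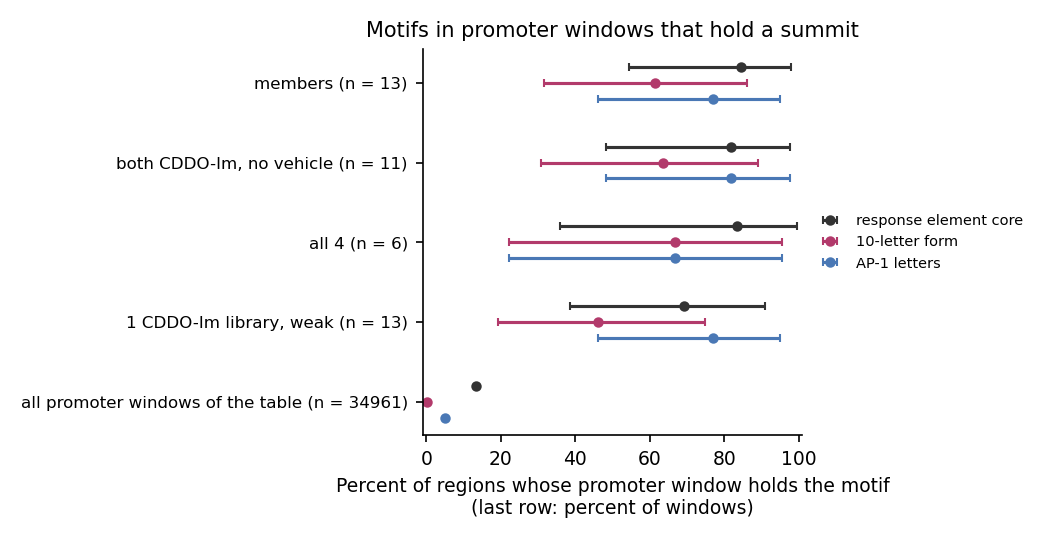
Share of regions whose promoter window held each motif, with exact 95% binomial intervals, by region class; the bottom row gives the share of all 34961 windows. A window held the core for 84.6% of the members and 81.8% of the regions of both CDDO-Im libraries, against 13.4% of all windows.

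The strength of a peak was read in tags, the immunoprecipitated fragments piled up at its summit. Each number was solved from the fold enrichment and p that the authors deposited. Members of CDDO-Im 1 held 8 to 33 tags with a median of 9, and 158 of the 198 (79.8%) held 8 to 10. Only 1 held 20 or more. Members of CDDO-Im 2 held 8 to 69 tags with a median of 10, and 637 of the 1241 (51.3%) held 8 to 10, while 58 held 20 or more. The −log10 q ran from 5.13 to 16.5 (median 6.38) in CDDO-Im 1 and from 5.01 to 39.0 (median 7.92) in CDDO-Im 2. Where both CDDO-Im libraries and no vehicle library listed a region, the median was 11 tags for CDDO-Im 1 and 16 tags for CDDO-Im 2.

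**Figure D2:**
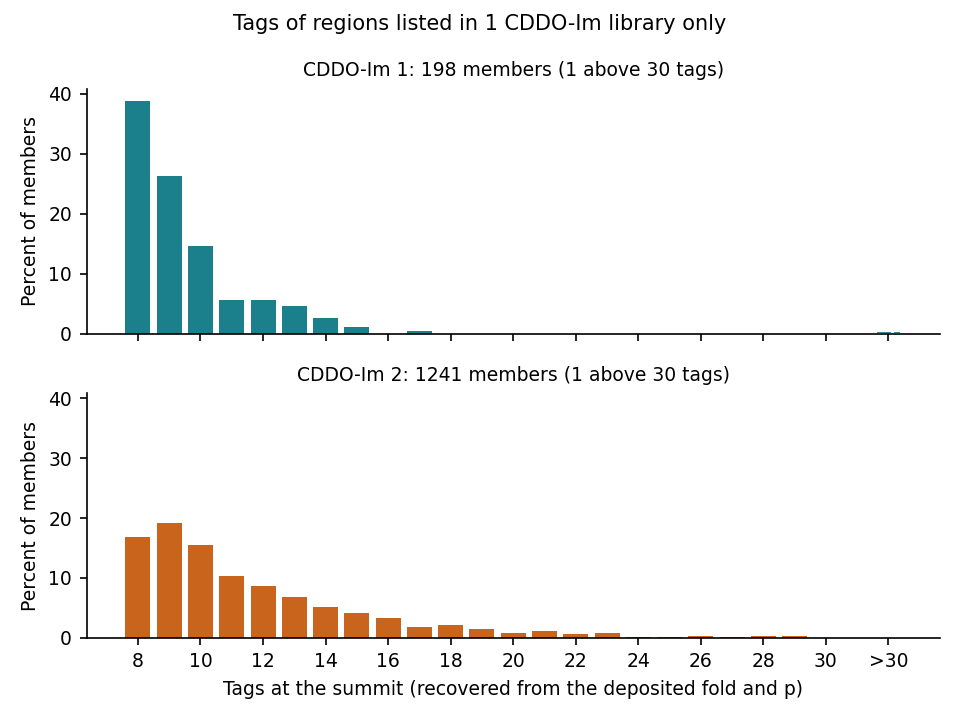
Percent of members (y axis) at each number of tags at the summit (x axis), for CDDO-Im 1 above and CDDO-Im 2 below on the same scale. Most CDDO-Im 1 members (79.8%) held 8 to 10 tags, and the members of CDDO-Im 2 reached further, with 58 at 20 or more.

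No member could lie below 8 tags, since 8 was the lowest number of any peak with a −log10 q of at least 5 in each library, while peaks of any q were listed from 4. Just inside the threshold in CDDO-Im 2 lay regions inside KIF18A, LIPC and LRRC28, each with 8 tags and a −log10 q of 5.01. The nearest below it, inside SORT1, had 8 tags and 4.97. In CDDO-Im 1 the lowest member values were 5.13 with 8 tags, among them a region inside ANO4, and the highest value outside was 5.00 (4.999 before rounding) with 8 tags.

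Whether a strong region without a vehicle peak was also listed by the other CDDO-Im library moved with its tags. Of 208 CDDO-Im 1 peaks with 8 tags, 131 were also listed by CDDO-Im 2 (63.0%, interval 56.0% to 69.6%). This share was 90.9% at 11 to 12 tags, and all 127 peaks with 20 to 29 tags were listed. At 30 to 42 tags it was 96.2% (25 of 26, interval 80.4% to 99.9%). Of 250 CDDO-Im 2 peaks with 8 tags, 42 were also listed by CDDO-Im 1 (16.8%, interval 12.4% to 22.0%). The share was 54.0% at 13 to 15 tags, 85.3% (81.3% to 88.6%) at 20 to 29 and 99.3% (149 of 150) at 30 to 72. Over all tags it was 85.5% for CDDO-Im 1 and 51.2% for CDDO-Im 2. At 20 to 29 tags CDDO-Im 2 thus still held 57 members of 387 such regions, and CDDO-Im 1 held 0 of 127.

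**Figure D3:**
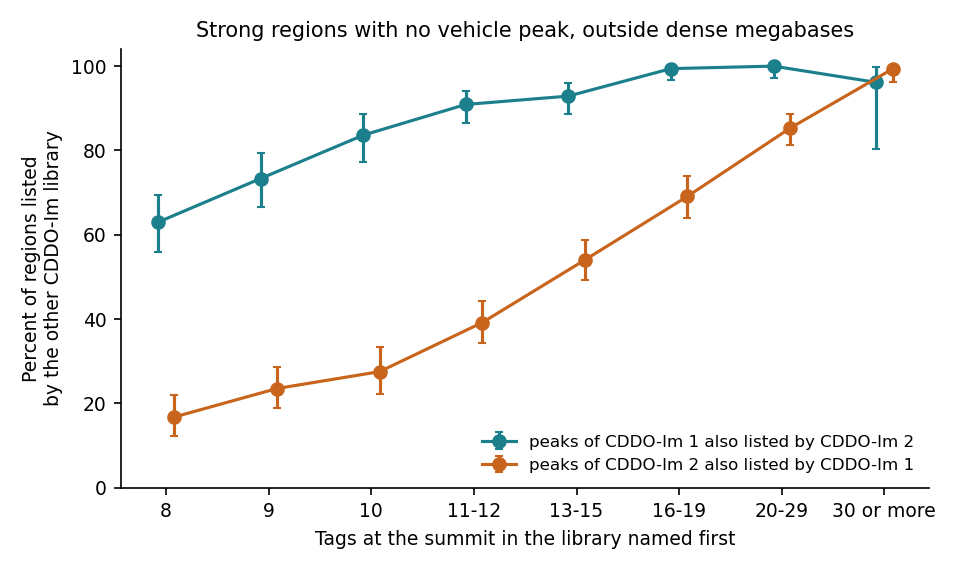
Share of strong regions without a vehicle peak that the other CDDO-Im library also listed (y axis, with exact 95% binomial intervals), by tags at the summit (x axis). It started at 63.0% for CDDO-Im 1 and 16.8% for CDDO-Im 2 at 8 tags and reached 100% and 85.3% at 20 to 29 tags.

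The lists differed in length. On the chromosomes used, dense megabases included, CDDO-Im 1 had 3882 peaks and CDDO-Im 2 had 12244. Vehicle 1 had 4098 and vehicle 2 had 7308. The lowest background recovered was 0.332 tags for CDDO-Im 1 and 0.367 tags for CDDO-Im 2, against 0.316 and 0.315 in the vehicle libraries. The sources used here give no total of reads per library. In regions of both CDDO-Im libraries the median ratio of tags, CDDO-Im 1 over CDDO-Im 2, was 0.706. That ratio rests only on regions that both libraries listed. Scaled by it, the median member of CDDO-Im 2 would come to 7.06 tags in CDDO-Im 1, and the median member of CDDO-Im 1 to 12.8 tags in CDDO-Im 2. Scaled by the ratio of the lowest backgrounds instead (0.903), they would come to 9.03 and 9.97 tags. Which ratio follows sequencing depth was not tested. When each list was cut to its 1216 strongest peaks, the length of the shortest list outside dense megabases, the counts were 269 for CDDO-Im 1 and 277 for CDDO-Im 2. Lists of equal length that share regions leave similar numbers over, so the closeness of these counts is largely set by the cut. The part of list length in the difference between 198 and 1241 was not tested. At a −log10 q of at least 10 the counts were 28 and 405.

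By the rule, no member overlaps a peak of another library, and distances to the nearest other summit describe what lies around it. Of the CDDO-Im 1 members, 3 had a summit of CDDO-Im 2 within 1 kb and 10 within 10 kb, with a median distance of 208060 bp. Of the CDDO-Im 2 members, 5 had a CDDO-Im 1 summit within 1 kb and 49 within 10 kb, with a median distance of 263910 bp. Vehicle summits lay within 10 kb of 3 and 29 members. Among themselves, 29 members formed 14 groups with neighbours less than 10 kb apart. Only the group at MAFG held 3 members. Another 3 groups held a member of each library, at SLC6A6, at KCNQ3 and near CEP120.

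Among known NRF2 target and pathway genes, 16 of the 103 in the table (15.5%) had a member inside the gene or within 10 kb, as did 792 of all 19970 protein-coding genes (3.97%). Each of the 16 had a member of CDDO-Im 2, which reached 702 of all genes (3.52%), and 4 also had one of CDDO-Im 1, which reached 107 of all genes (0.536%). Regions of both CDDO-Im libraries and no vehicle library reached 9 of the 103 (8.74%) and 778 of all genes (3.90%). Strong regions of 1 vehicle library reached 0 of the 103 and 65 of all genes (0.325%). The 18 members of CDDO-Im 2 at these genes had a median of 12.5 tags against 10 for all its members, and the 4 of CDDO-Im 1 a median of 9 against 9. A region inside a long gene counts for it, so long genes have more chances, and no length correction was made. The gene lists were chosen with earlier results of these data known. The shares therefore give no independent support, and their difference from all genes was not tested.

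Glutathione genes had members at 2 of 16. SLC7A11, the cystine transporter that feeds glutathione synthesis, had a CDDO-Im 2 member inside the gene (chr4:138235563-138235835) with 13 tags, fold 9.28 and −log10 q 11.4. The nearest CDDO-Im 1 summit lay 6896 bp away. MGST1, a membrane-bound glutathione transferase, had a member of each library inside the gene 174954 bp apart, with 8 tags in CDDO-Im 2 (chr12:16349028-16349354) and 12 in CDDO-Im 1 (chr12:16523999-16524253). Thioredoxin genes had members at 2 of 12, both of CDDO-Im 2. Thioredoxin itself, TXN, had 9 tags 390 bp outside the gene (chr9:110256806-110257055), and the peroxiredoxin PRDX1 had 13 tags inside it, 900 bp from an end (chr1:45521897-45522121).

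Detoxification genes had members at 3 of 20, all of CDDO-Im 2. The strongest lay 4883 bp outside ALDH3A1, an aldehyde dehydrogenase (chr17:19753040-19753334), with 29 tags, fold 16.2 and −log10 q 30.3. A member with 19 tags lay 538 bp outside its neighbour ALDH3A2 (chr17:19647437-19647751), 105583 bp from the first. For both, the nearest CDDO-Im 1 summit was over 900 kb away (1031153 and 925570 bp). AKR1B1, the aldose reductase, had 12 tags inside the gene (chr7:134448672-134449001). Of the NADPH supply genes, PGD, a dehydrogenase of the pentose phosphate pathway, had 10 tags inside the gene (chr1:10415425-10415733).

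Autophagy and proteasome genes had members at 3 of 12. PSMA1, a subunit of the proteasome core, had 22 tags (chr11:14544617-14544947) and ATG7, which activates the ubiquitin-like proteins of autophagy, had 8 (chr3:11305542-11305762). The member inside SQSTM1, an autophagy receptor (chr5:179819506-179819736), had 10 tags and lay 946 bp from a CDDO-Im 1 summit and 923 bp from a vehicle summit, so it stood beside a site that other libraries listed. Of the 13 pathway regulators, MAFG alone had members. This small MAF partner of NRF2 held 3 of CDDO-Im 2 inside the gene with 21 tags (chr17:81922634-81922931), 15 tags (chr17:81923463-81923697) and 17 tags (chr17:81926760-81927111). The nearest summit of CDDO-Im 1 lay 432150 bp or more from each.

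Among the other targets, SLC6A6, RXRA and MAP1B each had a member of both CDDO-Im libraries at separate places. In SLC6A6, the taurine transporter, the CDDO-Im 2 member had 10 tags and the CDDO-Im 1 member 8, 6514 bp apart. In RXRA, a nuclear receptor, both had 9 tags and lay 10742 bp apart, and a region of both CDDO-Im libraries lay 2238 bp from the CDDO-Im 2 member. In MAP1B, a microtubule-binding protein, they had 12 and 9 tags, 85922 bp apart. The 10 heme and iron genes had 0 members, while FTL and FECH, 2 of them, each had a region that both CDDO-Im libraries but neither vehicle library listed.

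**Figure D4:**
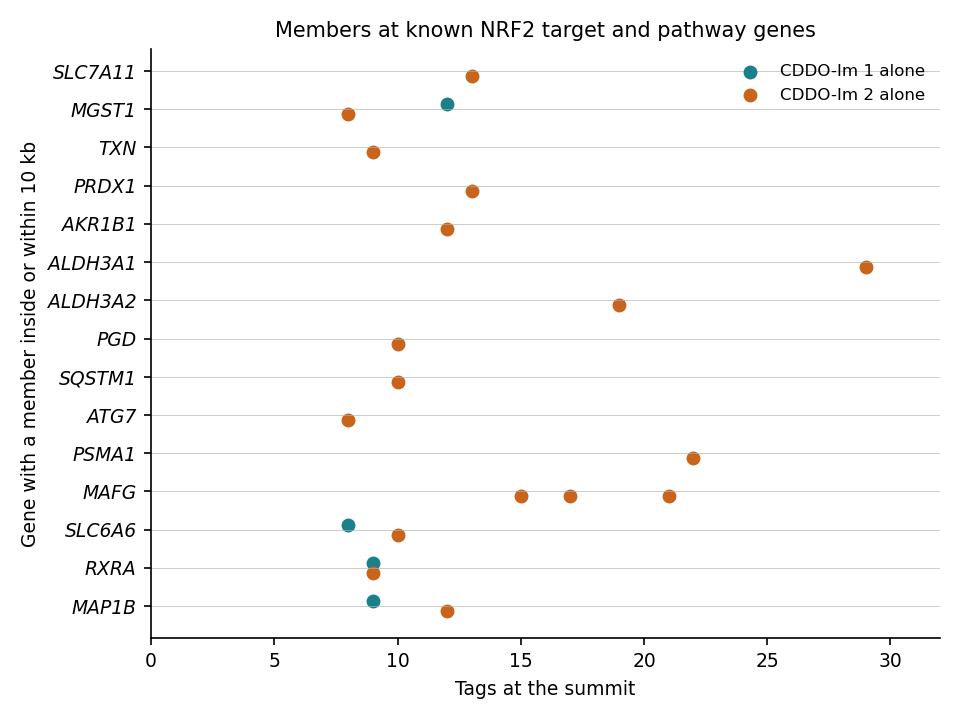
Tags at the summit (x axis) of members inside or within 10 kb of 15 known NRF2 target or pathway genes (y axis), 1 point per member, coloured by the library that listed it. CDDO-Im 2 listed 17 of these members, from 8 to 29 tags, and CDDO-Im 1 listed 4, from 8 to 12 tags.

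Lists of other functions had members at 3 of 88 genes (3.41%), near the 3.97% of all genes. The AP-1, inflammatory, heat shock, microglia and mesenchymal lists had 0 genes each. The 3 genes were TRIB3, a stress-induced pseudokinase (11 tags, 8567 bp away), MBP, a myelin protein (8 tags inside), and SYT1, a synaptic calcium sensor (9 tags inside), all with CDDO-Im 2 members.

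Of the 10 CDDO-Im 2 members within 10 kb of a gene with the highest −log10 q, that near ALDH3A1 alone was at a gene of the NRF2 lists. EPB41, a protein of the membrane skeleton (chr1:28950019-28950337), and FAM110B (chr8:58104633-58104994) each had 28 tags, fold 21.2 and −log10 q 39.0. CCDC80, a secreted protein of the extracellular matrix, had 28 tags (chr3:112619231-112619638) and TNIP1, an inhibitor of NF-κB signalling, had 29 (chr5:151063267-151063573). The potassium channel subunit KCNE3, the phospholipid flippase ATP8A1 and the RNA-editing enzyme ADARB1 each had 23 tags inside the gene. A member 807 bp from IMPG1, a proteoglycan of the retinal matrix, also had 23, and the one inside C1orf198 had 24. Among the 5 highest by −log10 q anywhere, a member with 29 tags lay 1721760 bp from SLITRK5, the nearest gene, and one with 25 tags lay 12356 bp from GLDN.

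Of the 10 CDDO-Im 1 members chosen in the same way, that inside MGST1 alone was at such a gene, and all were lower than the first 10 of CDDO-Im 2. MTRR, which reactivates methionine synthase, had 15 tags, fold 11.9 and −log10 q 16.5 (chr5:7857945-7858296). Regions inside the olfactory receptor gene OR2L13, the G protein regulator RGS6, the zinc finger gene ZKSCAN3 and DENND5B had 13 tags each. Those inside the mucin gene MUC19, the interferon-induced antiviral gene MX2, RSRC1 and MGST1 had 12, and that inside NTM, a neural adhesion protein, had 11. Away from genes, a member 482105 bp from FAT1 had 15 tags. Members with 14 tags lay 84207 bp from LRFN2, 319759 bp from LOC124900173 and 1271299 bp from FAM133A.

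Few genes held several members. Of the 792 genes, 46 had 2 members and 6 had at least 3, and 17 had a member of each library. Long genes have more chances here too. MBNL1, a splicing regulator, had 3 CDDO-Im 2 members of 16, 13 and 19 tags, PRKD1, a protein kinase, had 14, 8 and 9, and FLRT2, an adhesion protein, had 11, 12 and 10. PYCR1 and SIRT7 were counted for the same 3 members as MAFG. Genes with a member of each library included IGSF11 (13 tags in CDDO-Im 2, 9 in CDDO-Im 1), NTM (10 and 11), ASIC2 (9 and 9), JAKMIP3 (10 and 9), MACROD2 (9 and 8) and PCDH15 (9 and 8).

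At gene starts, the highest −log10 q of the 30 members within 500 bp was 21.2, at CYSLTR2, a leukotriene receptor, with 18 tags. Among the others were the members shown above at MAFG-AS1 (21 tags), MSANTD3 (16) and LOC124902205 (15). Further members were at LRRFIP2 (12) and GNAL (12), a G protein subunit. Another was at H4C8 (13), a histone gene of a family with near-identical copies, and whether reads were shared among copies was not tested. AIFM2 and TXN had 9 tags each.

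Some members rested on a high local background. The one with the most tags, 69 in CDDO-Im 2, lay 61924 bp from FRG2B over a background of 28.4 tags and had a fold of only 2.38, with a CDDO-Im 1 summit 415 bp away. The 33 tags of CDDO-Im 1 near ZNF33B stood over 8.37 tags (fold 3.63). In contrast, 35.4% of the CDDO-Im 1 and 34.3% of the CDDO-Im 2 members were called against the lowest background of their library. Median widths were close, at 245.5 bp in CDDO-Im 1 and 243 bp in CDDO-Im 2. At the narrow end they differed, with lower quartiles of 217.25 bp and 205 bp. The narrowest member was 206 bp in CDDO-Im 1 and 177 bp in CDDO-Im 2.

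By place, 632 of the 1439 members lay inside a protein-coding gene (43.9%, interval 41.3% to 46.5%), 268 within 10 kb of a gene end (18.6%) and 36 within 1 kb (2.50%). Another 488 (33.9%) lay outside genes and more than 50 kb from any. For all 7386 regions these shares were 44.4%, 18.1%, 2.34% and 33.7%. Regions of both CDDO-Im libraries without vehicle lay inside genes in 44.4% and within 10 kb of an end in 16.5%. For regions of all 4 libraries the shares were 47.8% and 28.7%. The members of CDDO-Im 1 lay more than 50 kb from genes in 43.9% (interval 36.9% to 51.2%) and those of CDDO-Im 2 in 32.3% (29.7% to 35.0%). Each of these shares comes from 1 library, and regions of a library are not replicates, so the intervals cover counting error only and a difference between libraries was not tested. The vehicle-only strong regions were at 44.4% (35.8% to 53.2%). Inside genes the shares of the 2 sets of members were 39.4% (32.5% to 46.6%) and 44.6% (41.9% to 47.5%).

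**Figure D5:**
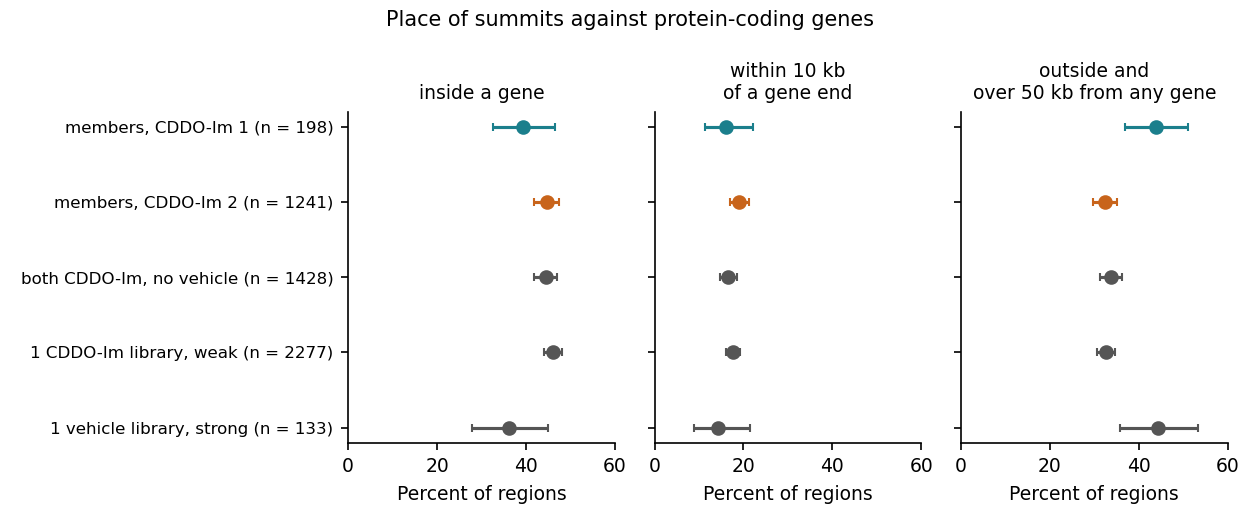
Percent of regions (x axis) inside a protein-coding gene, within 10 kb of a gene end, or outside and more than 50 kb from any gene, with exact 95% binomial intervals, by region class (rows). In the last panel CDDO-Im 1 members stood at 43.9% and vehicle-only strong regions at 44.4%, against 32.3% for CDDO-Im 2 members.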

How the data were processed

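NRF2 ChIP-seq peak lists of 2 vehicle and 2 CDDO-Im libraries were used. The 2 input samples were left out. The submitters' processing notes name bcl2fastq 2.15.0, BWA 0.7.17, MACS2 2.2.7.1 and the builds hg38 and GRCm38. Positions were read as hg38, the human build. The sources used here do not say how MACS2 was set (control, threshold, duplicates). The authors deposited for each peak a score, a fold enrichment, −log10 p and −log10 q, and a summit offset, each per library and not pooled.

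From these, peaks were joined and members chosen as described above. Tags were recovered by setting the fold equal to (tags + 1) / (background + 1) and p to the Poisson upper tail (tolerance 0.001 plus 0.0002 of the value). Tags matched for 100% of peaks, with a single solution for 97.7% to 99.4% per library. Genes were the 19970 protein-coding symbols of the RefSeq table on GRCh38.p14, which gives no strand or exons, so a summit is placed only inside or outside a gene. Of 193 listed genes in 16 lists, 191 matched.

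The motif search was planned around every summit, but no genome was used here, so it covers only summits in promoter windows. The windows used here hold 27195 symbols, and members on chromosome 8 were not searched. Named regions were the 10 highest by −log10 q per library within 10 kb of a gene and the 5 highest anywhere, list genes with a member (up to 6 per list), genes with at least 3 members or a member of each library (up to 8), up to 10 members within 500 bp of a gene start and 3 on each side of the threshold. LOC105371984, TXN, AIFM2 and JAKMIP3 at gene starts, groups of neighbouring members and members over a high background were chosen after their values were seen. A further item of the lists is counted but not reported here. The members and lists were chosen with earlier results of these data known. No test was run over samples, since the rule used the listing and q. Intervals are exact binomial (Clopper-Pearson). Tag recovery, joining and placing were tested on simulated data. Python 3.11.15, pandas 2.3.3, NumPy 2.4.6, SciPy 1.17.1 and matplotlib 3.10.9 were used.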

Additional observations from a re-analysis of the deposited data

Results flagged for a closer look

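Sequences outside the numbered chromosomes and X enter no comparison above. Of 343 regions there, CDDO-Im 2 alone listed 33 strongly, above the 8 of vehicle 1 and the 6 of vehicle 2. CDDO-Im 1 alone listed 5 there. Among the 7386 regions analysed above, the counts in the same order were 1241, 40, 93 and 198. The difference was not tested.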

How the results depend on the processing

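The number of members followed the thresholds. With a lowest −log10 q of 3 there were 746 in CDDO-Im 1 and 2162 in CDDO-Im 2, and with 10 there were 28 and 405. Keeping dense megabases gave 2437 in CDDO-Im 2, and equal numbers of top peaks gave 277 there. Leaving out 1 library gave 203 to 1368 members for CDDO-Im 1 and 1258 to 2541 for CDDO-Im 2. The highest value of each came without the other CDDO-Im library, which can then no longer remove a region. Shares inside genes were 23.8% with dense megabases kept, 58.7% with all genes of the table in place of protein-coding ones, and 39.4% to 44.6% with the members of a single library. Shares near a gene end were 21.5% at a −log10 q of at least 10, 10.1% with dense megabases kept, 2.50% within 1 kb, 51.1% within 50 kb and 16.2% to 19.0% with a single library. The share of members in a promoter window that held the core was 83.3% to 100% by library, with 12 such members for CDDO-Im 2 and 1 for CDDO-Im 1. Target genes with a member were 13 inside genes only and 17 within 50 kb. No paired analysis was possible because no result comes from a test. Of 41 alternatives, 24 were called the same and 17 moved. A count or ratio was called the same within a fixed fold range of the main value, as 269 members against 198 were. A share was called the same inside the main exact interval, as 61.5% of members with the 10-letter form against 84.6% with the core was. Scaled tags against the listing floor are not counted, since members start at 8 tags and could not reach it. At these depths a region missing from a list does not show that NRF2 was absent.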

Other observations

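Dense megabases, which were left out, held 11945 joined regions. Of these, 24 were strong regions of CDDO-Im 1 alone and 1196 of CDDO-Im 2 alone, and 109 and 511 of vehicle 1 and vehicle 2 alone. There the vehicle libraries alone thus listed more than CDDO-Im 1. Outside them the same counts were 198, 1241, 40 and 93 of 7386 regions. The members there lay on all chromosomes analysed, from 18 on chromosome 19 to 124 on chromosome 1.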
